A study of Mus musculus with 10 samples.

Results

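The genes described here encode the calcineurin, NFAT and CaMKII arms of calcium-dependent hypertrophy signalling in cardiomyocytes (CMs). They are 10 of the 37819 features in the expression table. They were picked by name for their place in the pathway, with earlier results of these data known. Among them are the calcineurin subunits Ppp3ca, Ppp3cb and Ppp3r1 and the calcineurin regulators Rcan1 and Rcan2. The rest are the NFAT factors Nfatc1, Nfatc3 and Nfatc4 and the CaMKII isoforms Camk2d and Camk2g. Each symbol matched 1 row, and each gene was above 0 in all 10 libraries. RNA was sequenced from CMs of old (20 months) and young (3 months) C57BL6J mice, inbred animals from a commercial breeder, with 5 libraries per age. The labels list no transgene or treatment for either age. CMs were released by enzyme perfusion of the heart on a Langendorff apparatus and sedimented, and cells positive for CD31, SCA1 or CD45 were then removed. The study's methods describe its C57BL/6 mice as mixed-sex. The labels give neither the sex nor the animal behind a library. A legend of the study gives fewer mice per age than there are libraries here, while another gives n = 5 per age group. As the legends differ, libraries may or may not share an animal. Here n counts libraries, and p-values measure the spread between libraries, which may be technical.

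In the working heart, calcium bound to calmodulin activates both calcineurin, a phosphatase, and CaMKII, a kinase. Calcineurin strips phosphate from NFAT proteins in the cytosol, which then enter the nucleus and act with GATA4 and MEF2 factors on growth genes. CaMKII phosphorylates calcium-handling proteins such as the ryanodine receptor and phospholamban, and it also drives class II histone deacetylases out of the nucleus, which releases MEF2. Both enzymes are controlled mainly through calcium and protein modification, which RNA levels do not show.

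RNA levels are given as FPKM, fragment counts scaled by transcript length and by the mapped fragments of the library, so levels of different genes can be compared per length. Depth, read from the steps between the lowest FPKM values, was about 24300000 to 31900000 fragments per library. CM markers summed to 43785 to 50275 FPKM in old CMs and 46984 to 56135 FPKM in young CMs. Sums for endothelial markers were 211 to 429 FPKM in old CMs and 173 to 382 FPKM in young CMs, for fibroblast markers 56.3 to 160.0 FPKM in old CMs and 59.6 to 152 FPKM in young CMs, for mural markers 136 to 231 FPKM in old CMs and 147 to 233 FPKM in young CMs, and for leukocyte markers 24.5 to 39.6 FPKM in old CMs and 20.3 to 59.0 FPKM in young CMs. Erythroid markers summed to 1.36 to 5.80 FPKM in old CMs and 2.61 to 23.9 FPKM in young CMs. No marker of any list was at 0 in all libraries. None had an adjusted p under 0.05 between the ages, against 1.78% of all tested features. Of all tested features, 68.7% had a difference below 0 (old minus young). Differences were below 0 for 10 of 10 mural markers (median -0.12), 7 of 10 CM markers (median -0.07) and both tested erythroid markers (median -0.94), and above 0 for 9 of 10 fibroblast markers (median 0.11), 6 of 10 endothelial markers (median 0.05) and 3 of 6 tested leukocyte markers (median 0.03). Old library 1 and young library 4 were highest in the mean of these stromal markers. Within each age Rgs5 was highest in these libraries (117 and 115 FPKM), while Abcc9, also on the mural list, was not. Abcc9 made up 44.1 to 50.9 FPKM of the old mural sums and 41.4 to 64.1 FPKM of the young ones. Both were named after their values were seen, and which cells the Abcc9 RNA came from was not tested. Ages were compared with limma on log2(FPKM + 1) over the 12340 features that averaged 1 FPKM or more, two-sided, with Benjamini-Hochberg adjustment over all of them, and an adjusted p under 0.05 was called. Differences are log2 values of old minus young CMs on that scale, and adjusted p-values below come from this fit. Markers with an unadjusted p under 0.05 in this fit were Tnni3 (CM, difference -0.22, adjusted p = 0.089), Acta2 (mural, -0.75, adjusted p = 0.193) and Postn (fibroblast, 0.57, adjusted p = 0.233). They were named after their values were seen, and 20.9% of all tested features had such a p. Tnni3 did not overlap between the ages, as in 6.91% of all tested features.

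By level, the 10 members were led by an inhibitor and a kinase, and the 3 NFAT genes were the lowest. Rcan2 was the most abundant member in every library, at 150 ± 4.83 FPKM in old CMs and 160 ± 12.5 FPKM in young CMs (SD, n = 5 each). Camk2d, Rcan1, Ppp3r1, Ppp3cb, Ppp3ca, Camk2g, Nfatc3, Nfatc1 and Nfatc4 followed in this order of mean FPKM. Neighbours in this order stood the same way round in 10 of 10 libraries, except that Camk2d exceeded Rcan1 in 8 of 10 and Ppp3cb exceeded Ppp3ca in 9 of 10. The order held at both ages for every other neighbouring pair.

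**Figure D1:**
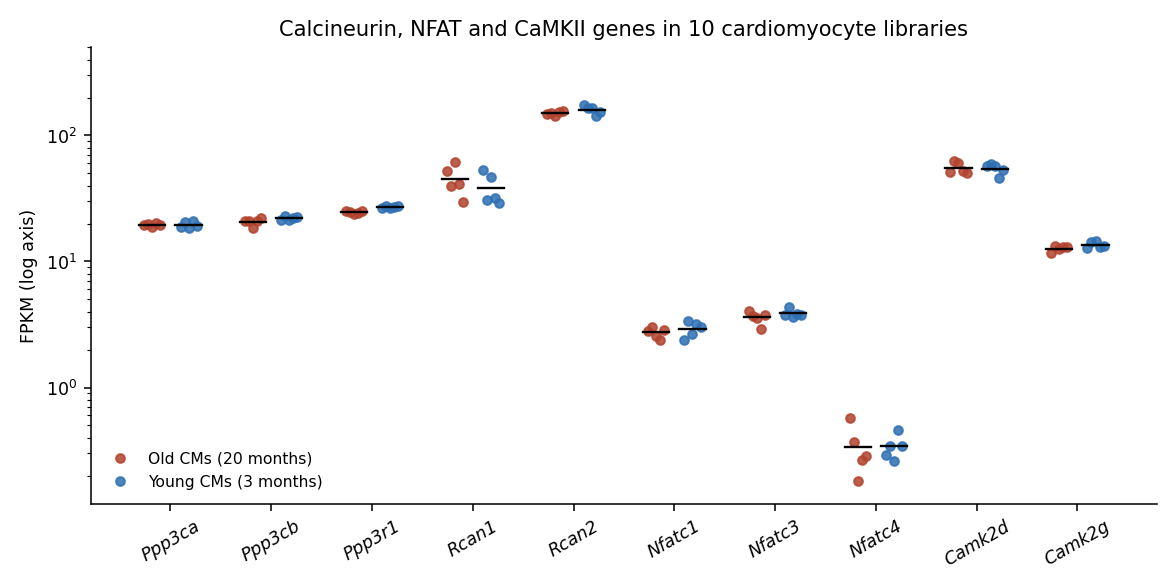
FPKM of the 10 genes on a log axis, with 1 point per library and black bars for the mean of 5 libraries (old CMs on the left of each pair, young CMs on the right). Levels run from under 1 FPKM for Nfatc4 to over 100 FPKM for Rcan2, and Ppp3r1 is the 1 tested gene whose old and young points do not overlap.

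None of the 9 members that passed the filter was called between old and young CMs by limma, against 220 of 12340 features (1.78%). Of these 220 features, 85 were higher (0.689% of those tested) and 135 lower (1.09%) in old CMs, a split that became 106 higher and 29 lower with median-ratio scaling of the libraries. At an unadjusted p under 0.05 there was 1 member, Ppp3r1, against 20.9% of all tested features. Differences were below 0 for 7 of 9 members, against 68.7% of all features, and the members' median was -0.08, against -0.06 for all features. The count of called members was 0 under all 20 alternative settings. An adjusted p above the threshold does not show that the levels are the same, so intervals are given for each gene.

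**Figure D2:**
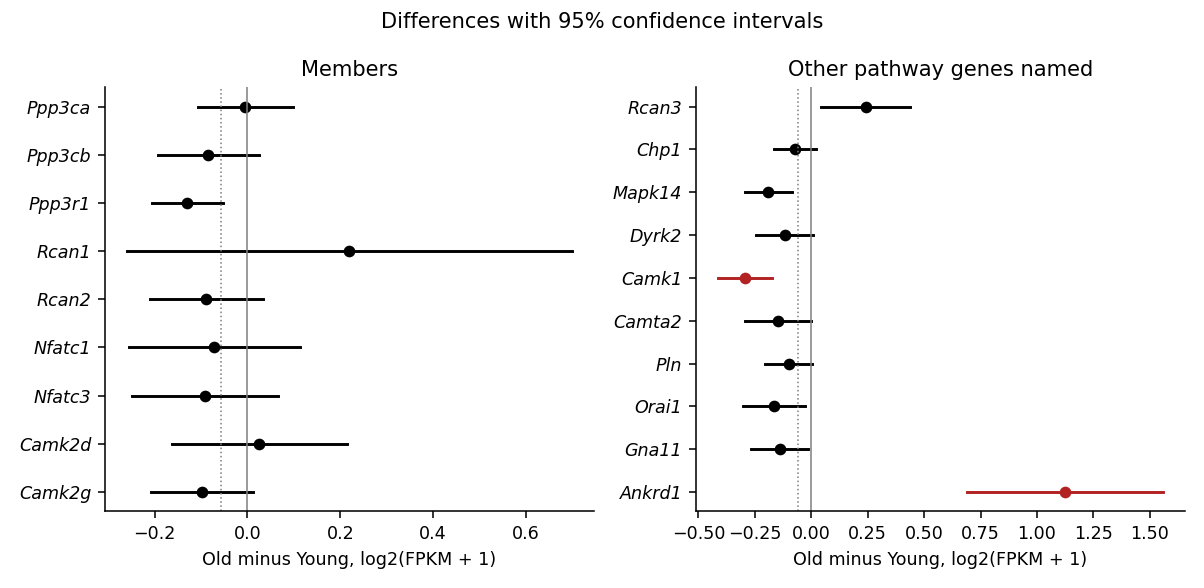
Difference of old minus young CMs in log2(FPKM + 1) (points) with 95% confidence intervals (lines) for the 9 tested members on the left and for other named genes of the pathway on the right, with features called by limma in red. The dotted line is the median of all tested features, -0.06, the intervals of all members but Ppp3r1 include 0, and Rcan1 has the widest member interval, from -0.26 to 0.70.

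The regulatory subunit of calcineurin, Ppp3r1, was the member that came nearest to a call. Ppp3r1 encodes calcineurin B, the calcium-binding subunit that the catalytic A subunits need, and lies at chr11:17059266-17100378 (mm9, plus strand). It had 25.2, 24.6, 23.7, 24.4 and 25.3 FPKM in old libraries 1 to 5, against 26.6, 27.8, 26.4, 26.9 and 27.6 FPKM in young libraries 1 to 5. Every old library was below every young library. The ages did not overlap in this 1 of 9 members, against 6.91% of all tested features, of which 5.72% were lower and 1.19% higher in old CMs. The means were 24.6 ± 0.621 FPKM in old CMs and 27.0 ± 0.633 FPKM in young CMs (SD, n = 5 each), a difference of -8.87% of the young mean. The difference was -0.13 (SE 0.03, 95% interval -0.20 to -0.05) with an adjusted p of 0.0853. The exact permutation test of Ppp3r1 alone gave an unadjusted p = 0.00794, the smallest that 5 against 5 libraries allow. Any gene whose ages do not overlap gets this value, so it restates the non-overlap. The difference shrank to -0.06 with median-ratio scaling (adjusted p = 0.453). It was -0.13 (adjusted p = 0.0809) with the stromal marker mean as a covariate and -0.14 (adjusted p = 0.171) without old library 1 and young library 4. Over all 20 alternatives the adjusted p was 0.0562 to 0.9999, the highest with equal total FPKM. That setting divided the libraries by factors from 0.58 (old library 3) to 1.651 (old library 1). The factors of median-ratio scaling ran from 0.9449 (old library 4) to 1.053 (young library 2). Part of the Ppp3r1 exons overlaps Wdr92 on the same strand, and Wdr92, at 5.37 FPKM in old CMs and 6.49 FPKM in young CMs, differed by -0.23 (adjusted p = 0.116), so fragments of the shared exons may have been assigned to either. In bulk RNA, fewer cells of a type and less RNA per cell cannot be told apart.

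RefSeq promoters were at hand for 7 of the 10 genes, in 11 windows, on GRCm38.p6, a newer build than the mm9 of the expression values. Promoter windows of Ppp3r1 and Rcan1 are shown because Ppp3r1 came nearest to a call and because Rcan1, itself a known NFAT target, varied most between libraries among the tested members and has 2 start sites. Each is the 250 bases before a RefSeq start, read 5′ to 3′ on the gene's strand, with the NFAT core GGAAA or its reverse complement TTTCC in capitals:
Ppp3r1, chr11:17159048-17159297, plus strand: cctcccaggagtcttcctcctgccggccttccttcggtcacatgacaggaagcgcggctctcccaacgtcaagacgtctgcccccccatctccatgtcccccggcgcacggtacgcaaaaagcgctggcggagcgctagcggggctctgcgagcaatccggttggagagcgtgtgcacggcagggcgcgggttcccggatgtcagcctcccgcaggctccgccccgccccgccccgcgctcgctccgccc
Rcan1 downstream start, chr16:92400079-92400328, minus strand: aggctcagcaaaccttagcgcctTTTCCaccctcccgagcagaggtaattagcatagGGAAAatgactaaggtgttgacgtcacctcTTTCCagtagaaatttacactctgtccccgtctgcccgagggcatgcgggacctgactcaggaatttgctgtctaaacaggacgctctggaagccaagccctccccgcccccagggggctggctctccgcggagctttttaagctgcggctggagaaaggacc
Rcan1 upstream start, chr16:92466170-92466419, minus strand: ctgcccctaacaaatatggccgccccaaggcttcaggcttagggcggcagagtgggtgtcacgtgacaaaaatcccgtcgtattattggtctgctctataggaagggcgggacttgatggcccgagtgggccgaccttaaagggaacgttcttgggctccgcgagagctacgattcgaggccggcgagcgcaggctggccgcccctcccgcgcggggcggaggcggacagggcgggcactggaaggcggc
The core occurred 3 times before the downstream Rcan1 start, while the upstream Rcan1 window and the Ppp3r1 window had 0 matches. Of 32851 promoter windows of this length, 55.6% held the core at least once on either strand and 6.39% held it at least 3 times. Among the 11 member windows 6 held it, with 3 matches also in the windows of Ppp3cb and Nfatc4. A match to 5 letters is a description of the sequence and says nothing of binding.

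The catalytic subunits showed no called difference with age and kept nearly equal levels. Ppp3ca, calcineurin A alpha (chr3:136333088-136600691, mm9, plus strand), had 19.6, 19.8, 18.7, 20.2 and 19.4 FPKM in old CMs and 18.7, 20.7, 18.4, 21.1 and 19.2 FPKM in young CMs. The old values lay inside the range of the young ones. The difference was -0.0044 (SE 0.05, 95% interval -0.11 to 0.10) with an adjusted p of 0.972. Ppp3cb, calcineurin A beta, the isoform whose loss blunts pressure-induced hypertrophy in mice, lies at chr14:21318586-21365795 (mm9, minus strand). It had 20.8, 20.9, 18.5, 21.1 and 22.2 FPKM in old CMs and 21.3, 22.9, 21.3, 22.0 and 22.5 FPKM in young CMs. Old library 3 was lowest, and old library 5 alone of the old libraries exceeded any young one. The difference of Ppp3cb was -0.08 (SE 0.05, 95% interval -0.19 to 0.02) with an adjusted p of 0.362.

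Another catalytic gene, Ppp3cc, named after its values were seen, was the least abundant of the A subunits. Ppp3cc took 25.1% ± 1.21 in old CMs and 25.7% ± 2.39 in young CMs, Ppp3ca 36.4% ± 0.762 in old CMs and 35.0% ± 1.76 in young CMs, and Ppp3cb 38.5% ± 1.43 in old CMs and 39.3% ± 1.10 in young CMs (SD, n = 5 each). The sum of the A subunits was 53.8 ± 1.75 FPKM in old CMs and 56.0 ± 1.76 FPKM in young CMs. Relative to its catalytic partners Ppp3ca and Ppp3cb together, Ppp3r1 stood at 0.613 ± 0.0182 in old CMs and 0.650 ± 0.0174 in young CMs, a ratio that rescaling a whole library cannot move. The log2 ratio was -0.68, -0.73, -0.65, -0.76 and -0.72 in old libraries 1 to 5 and -0.59, -0.65, -0.59, -0.68 and -0.60 in young libraries 1 to 5. Old library 3 alone lay within the young range. The difference in the log2 ratio was -0.09, with an exact two-sided permutation p of 0.0159 and p = 0.0794 after adjustment over the 5 ratios tested, above the threshold. The ratio of Ppp3ca over Ppp3cb differed by 0.08 (exact permutation p = 0.111, adjusted p = 0.278).

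**Figure D3:**
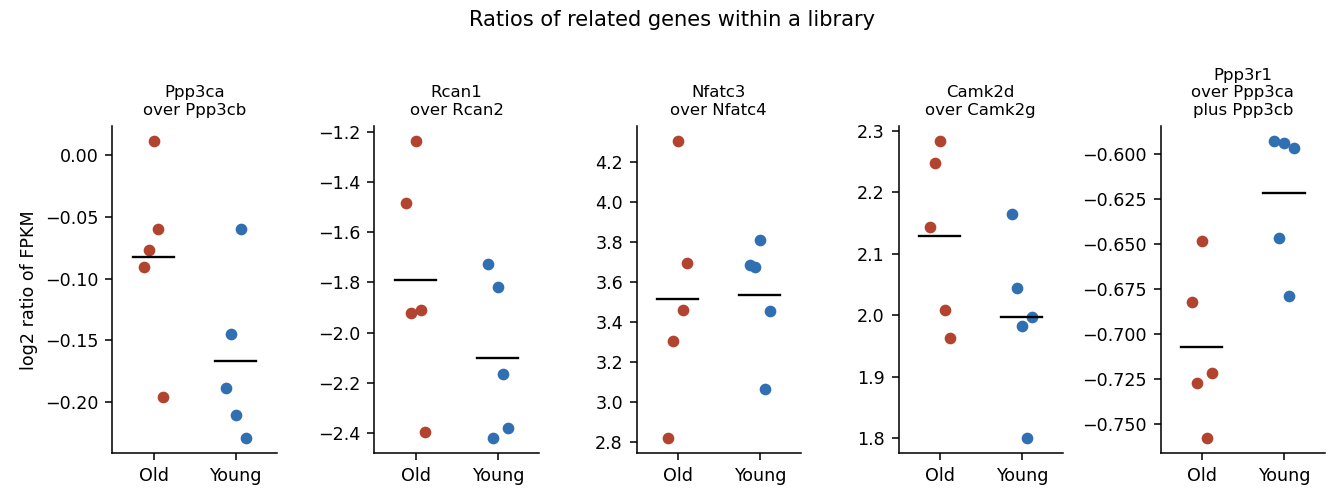
Log2 ratio of FPKM between related genes within each library, with 1 point per library, black bars for the mean of 5 libraries, old CMs on the left and young CMs on the right of each panel. Each panel has its own axis; the ratio of Ppp3r1 to the catalytic subunits, with old library 3 within the young range, has the smallest adjusted p of the 5, 0.0794.

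The RCAN proteins bind calcineurin and restrain it, and Rcan1 is transcribed in part from a start site that NFAT itself activates. Rcan1 (chr16:92392198-92466391, mm9, minus strand) had 52.6, 40.0, 61.1, 40.9 and 29.6 FPKM in old CMs and 53.2, 30.9, 46.4, 32.0 and 29.2 FPKM in young CMs. Old libraries 1 and 3 and young libraries 1 and 3 were high, and both ages reached down to about the same lowest level. The mean was 44.8 ± 12.2 FPKM in old CMs and 38.3 ± 10.8 FPKM in young CMs (SD, n = 5 each). The difference was 0.22 (SE 0.22, 95% interval -0.26 to 0.70) with an adjusted p of 0.615, the widest interval among the members. It was 0.10 without old library 3 and 0.36 without old library 5, the lowest and highest values on leaving out each library in turn, and was not called in any of them. The coefficient of variation of Rcan1 was 27.3% in old CMs and 28.1% in young CMs, against 2.52% in old CMs and 2.34% in young CMs for Ppp3r1. Gene-level FPKM do not separate transcripts from the 2 start sites shown above, so the use of each start was not measured here.

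Rcan2 (chr17:43938800-44176465, mm9, plus strand), the RCAN gene that made up most of the family's RNA here, had 147, 151, 144, 154 and 156 FPKM in old CMs and 176, 166, 164, 144 and 152 FPKM in young CMs. Young libraries 1, 2 and 3 were above every old library, and young library 4 was the lowest of all. The difference was -0.09 (SE 0.06, 95% interval -0.21 to 0.03) with an adjusted p of 0.404. Rcan2 took 76.2% ± 5.40 of the summed RCAN FPKM in old CMs and 80.1% ± 3.28 in young CMs, and Rcan1 22.5% ± 5.26 in old CMs and 18.9% ± 3.43 in young CMs. The log2 ratio of Rcan1 over Rcan2 differed by 0.31 between the ages (exact permutation p = 0.246, adjusted p = 0.308). The least abundant RCAN gene, Rcan3, had 2.81, 2.52, 3.22, 2.19 and 2.29 FPKM in old CMs and 1.69, 2.23, 2.11, 2.03 and 2.14 FPKM in young CMs. Old library 4 alone fell within the young range. The difference of Rcan3 was 0.24 (SE 0.09, 95% interval 0.05 to 0.44), with an adjusted p of 0.161.

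Among all tested features, the 4 whose log2(FPKM + 1) followed Rcan1 most closely across the 10 libraries were Adam19, Tmem53, Gm12270 and Hs6st1. Adam19 encodes a membrane protease that sheds growth factors, and its Pearson correlation with Rcan1 was 0.951 (Spearman 0.964). It had 4.22, 2.66, 5.73, 2.85 and 1.63 FPKM in old CMs and the same libraries, 1 and 3, were its highest at both ages. Pearson correlations were 0.951 for Tmem53, 0.924 for Gm12270 and 0.916 for Hs6st1, a heparan sulfate sulfotransferase. Around the mean of each age, the correlation with Adam19 was 0.955. These values are the highest among all tested features over points that share libraries, and they are given as a description only.

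**Figure D4:**
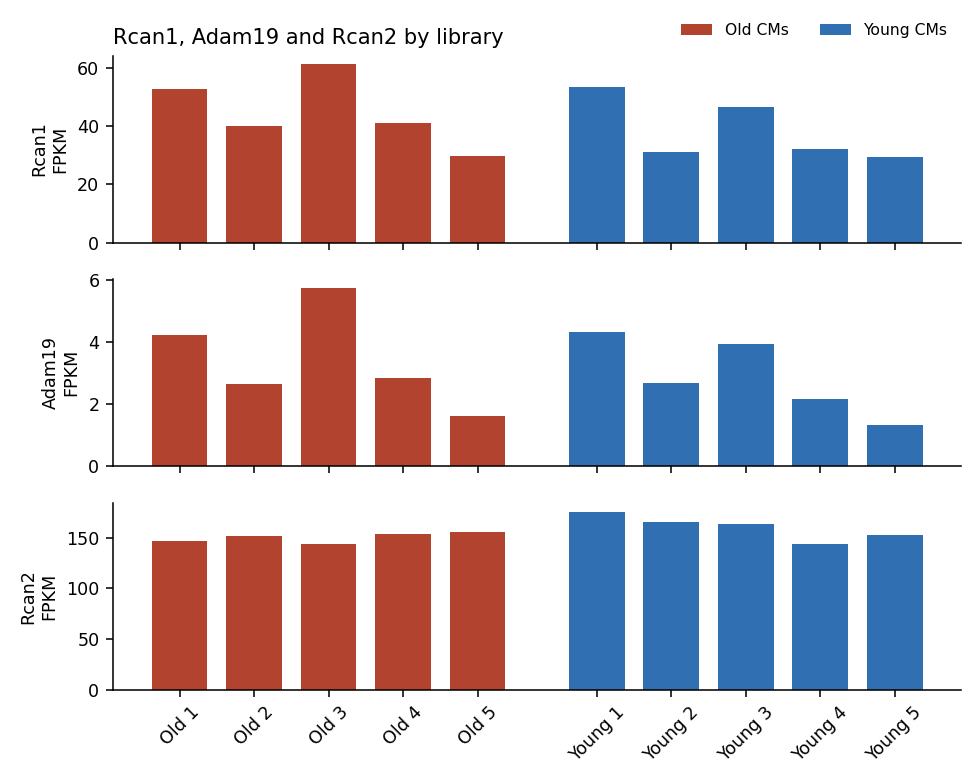
FPKM of Rcan1, Adam19 and Rcan2 in each library (bars from 0), with old libraries 1 to 5 on the left and young libraries 1 to 5 on the right. Rcan1 and Adam19 are highest in libraries 1 and 3 of both ages, while Rcan2 stays between 144 and 176 FPKM.

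The NFAT factors were low and showed no called difference with age. Nfatc3, whose loss reduces calcineurin-driven hypertrophy in mice, lies at chr8:108582740-108654437 (mm9, plus strand). It had 4.04, 3.69, 3.58, 2.93 and 3.73 FPKM in old CMs and 3.78, 4.35, 3.65, 3.87 and 3.79 FPKM in young CMs. Old library 4 was the lowest and young library 2 the highest. The difference was -0.09 (SE 0.07, 95% interval -0.25 to 0.07) with an adjusted p of 0.515. Part of its exons overlaps Esrp2 on the opposite strand. Esrp2 was at 0.180 to 0.359 FPKM in old CMs and 0.227 to 0.420 FPKM in young CMs. Whether the counting used strand is not given in the sources used here.

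Nfatc1 (chr18:80802944-80909810, mm9, minus strand), required in the endocardium for heart valve formation in mice, had 2.83, 3.04, 2.56, 2.38 and 2.87 FPKM in old CMs and 2.39, 3.39, 2.67, 3.22 and 3.01 FPKM in young CMs. Old library 4 alone lay outside the young range, just below it. The difference was -0.07 (SE 0.08, 95% interval -0.25 to 0.11) with an adjusted p of 0.683. Nfatc4 (chr14:56443632-56452780, mm9, plus strand), which acts with GATA4 in mouse heart, was under the filter and had 0.573, 0.373, 0.181, 0.266 and 0.289 FPKM in old CMs and 0.294, 0.341, 0.260, 0.463 and 0.345 FPKM in young CMs. The highest old value was in old library 1 and the highest young value in young library 4, the libraries highest in stromal markers, and the part of these cells in the Nfatc4 value was not tested. These values correspond to about 20 to 60 fragments per library, the coefficient of variation was 44.2% in old CMs and 22.5% in young CMs, and the exact permutation test gave p = 0.952. The log2 ratio of Nfatc3 over Nfatc4 differed by -0.02 (exact permutation p = 0.976, adjusted p = 0.976). Nfatc2, named after its values were seen, took 30.5% ± 3.37 of the summed NFATc FPKM in old CMs and 29.4% ± 3.75 in young CMs, beside 37.4% ± 1.86 in old CMs and 38.4% ± 2.32 in young CMs for Nfatc3 (SD, n = 5 each).

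Camk2d carried most of the CaMKII RNA at both ages. It encodes CaMKII delta, the main cardiac isoform, whose splice variants act in the nucleus or the cytosol, and lies at chr3:126299220-126547972 (mm9, plus strand). It had 51.5, 62.5, 60.9, 52.0 and 50.8 FPKM in old CMs and 57.2, 59.1, 57.4, 45.7 and 53.4 FPKM in young CMs. Old libraries 2 and 3 were the highest and young library 4 was the lowest, with the ages overlapping. The difference was 0.03 (SE 0.08, 95% interval -0.16 to 0.21) with an adjusted p of 0.907. Its splice variants were not separated, since the values are given per gene. Camk2g, CaMKII gamma (chr14:21554097-21613310, mm9, minus strand), had 11.6, 13.2, 12.5, 12.9 and 13.01 FPKM in old CMs and 12.7, 14.3, 14.5, 13.1 and 13.4 FPKM in young CMs. Old library 1 was the lowest, and no old library exceeded 13.2 FPKM. The difference of Camk2g was -0.10 (SE 0.05, 95% interval -0.21 to 0.01) with an adjusted p of 0.292.

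As shares of summed CaMKII FPKM, Camk2d took 59.2% ± 2.70 in old CMs and 58.3% ± 2.36 in young CMs, and Camk2g 13.5% ± 0.718 in old CMs and 14.6% ± 0.873 in young CMs. The other isoforms, named after their values were seen, were Camk2a with 21.7% ± 1.18 in old CMs and 22.6% ± 1.26 in young CMs and Camk2b with 5.52% ± 0.924 in old CMs and 4.56% ± 1.03 in young CMs (SD, n = 5 each). In muscle, Camk2a also gives rise to an anchoring protein without a kinase domain, and values per gene cannot separate it from the kinase. The summed CaMKII level was 93.6 ± 6.28 FPKM in old CMs and 93.4 ± 6.50 FPKM in young CMs. The log2 ratio of Camk2d over Camk2g differed by 0.13 (exact permutation p = 0.175, adjusted p = 0.291).

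**Figure D5:**
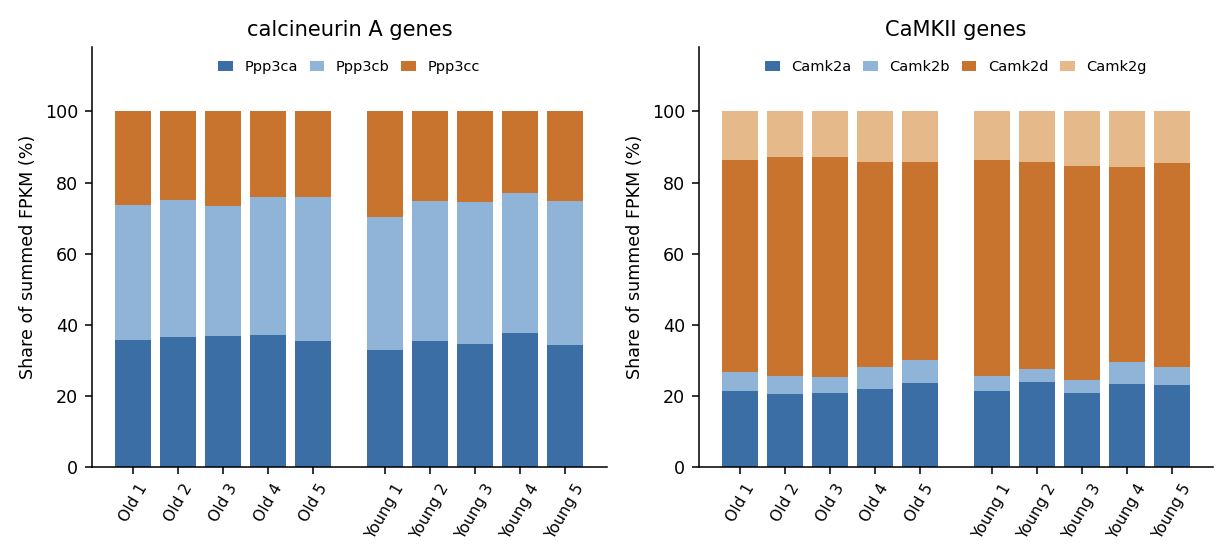
Share of each gene in the summed FPKM of the calcineurin A genes (left) and of the CaMKII genes (right) in each library, with old libraries 1 to 5 on the left of each panel and young libraries 1 to 5 on the right. Camk2d holds 55.6% to 61.9% of CaMKII FPKM in old CMs and 54.8% to 60.8% in young CMs.

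Camk2d was followed most closely across the 10 libraries by Osbpl3 (Pearson 0.936, Spearman 0.939), a lipid-binding protein, then by Zfp655 (0.916 and 0.867), Myo18b (0.910 and 0.867) and Samd4 (0.885 and 0.842). Myo18b encodes an unconventional myosin needed to build sarcomeres, and Samd4 an RNA-binding protein. Myo18b had 46.1, 52.7, 48.0, 47.1 and 45.1 FPKM in old CMs, with its highest old value in library 2, as for Camk2d. These correlations too are the highest of many over shared libraries and are a description only.

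Around the members, 71 further genes in 6 pathway lists were looked up, and 60 passed the filter. Of these, Ankrd1 rose and Camk1 fell in old CMs by limma, 2 of 60 against the 1.78% of all tested features that were called. The median difference over the 60 genes was -0.03. Of 13 tested calcineurin subunits and regulators and of 13 tested NFAT relatives, kinases and partners, 0 were called by limma, with 1 in each list at an unadjusted p under 0.05. Of 10 tested CaMKII substrates and related genes 0 were called by limma. The 1 at an unadjusted p under 0.05 was Camta2, a coactivator not shown here to be a substrate. Of 11 tested genes of upstream calcium and Gq signalling 0 were called by limma, with 2 at an unadjusted p under 0.05.

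Camk1 encodes calmodulin-dependent kinase I, which is activated by an upstream kinase and is distinct from CaMKII. It had 25.2, 29.3, 29.5, 30.6 and 29.2 FPKM in old CMs and 37.6, 35.2, 34.9, 35.8 and 33.8 FPKM in young CMs. All old libraries were below all young ones, and the difference was -0.29 (SE 0.05, adjusted p = 0.0315). The call was lost with median-ratio scaling (-0.23, adjusted p = 0.108) and on leaving out any 1 library other than old library 1 (adjusted p up to 0.0822). It was also lost with equal total FPKM, with a replicate block (adjusted p = 0.158) and without old library 1 and young library 4 together. The adjusted p ranged from 0.0235 to 0.9999 over 20 alternatives, the highest with equal total FPKM. In these alternatives the difference was -0.34 to -0.23. With Camk1 in the list of 6 tested CaM kinase relatives, the other 5 were not called.

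Ankrd1 encodes a stress-responsive repeat protein of the sarcomere and nucleus that rises in hypertrophy. It had 847, 900, 1112, 768 and 654 FPKM in old CMs and 616, 358, 286, 381 and 358 FPKM in young CMs. The groups did not overlap, with the lowest old library just above young library 1, the highest young one. The difference was 1.12 (SE 0.20, adjusted p = 0.0284), and Ankrd1 was the 1 of 7 hypertrophic target genes that was called. That list was chosen with earlier results of these data known, so its counts are a description only. Its median was 0.26, and 4 of the 7 had an unadjusted p under 0.05, against 20.9% of all tested features. Beside Ankrd1 these were Nppb (difference 0.76, adjusted p = 0.176), Xirp2 (0.26, adjusted p = 0.192) and Atp2a2 (-0.18, adjusted p = 0.189), named after their values were seen. Atp2a2 alone of the 4 was lower in old CMs, and the list was not sorted by the direction each gene takes in hypertrophy. The call of Ankrd1 was lost on leaving out old library 1, 2, 3 or 4 or young library 2, 3 or 5 (adjusted p up to 0.0800). It held without old library 5, young library 1 or young library 4. The call was also lost with no filter on low values (adjusted p = 0.0518) and with equal total FPKM. A replicate block (adjusted p = 0.130) and leaving out old library 1 and young library 4 together lost it too. The adjusted p ranged from 0.0048 to 0.780 over 20 alternatives, the highest with equal total FPKM. The difference itself was 1.02 to 1.29 in these 20 alternatives. The study listed Ankrd1 and Myh7 among genes of contraction and hypertrophy that its sequencing found enriched in old mice. Here Myh7, named after its values were seen, differed by 0.105 (adjusted p = 0.502).

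Other named genes of the pathway were not called. Mapk14, p38 alpha, a kinase that phosphorylates NFAT and keeps it in the cytosol, had 16.9 to 20.1 FPKM in old CMs and 20.8 to 22.2 FPKM in young CMs. Its groups did not overlap, as in 6.91% of all tested features. Its difference was -0.19 (SE 0.05, adjusted p = 0.0773) and shrank to -0.125 with median-ratio scaling (adjusted p = 0.303). Dyrk2, another NFAT kinase, differed by -0.12 (adjusted p = 0.270). Pln, phospholamban, the CaMKII target that restrains the calcium pump of the sarcoplasmic reticulum, averaged 2118 FPKM in old CMs and 2271 FPKM in young CMs and differed by -0.10 (adjusted p = 0.264). Camta2, a transcriptional coactivator in hypertrophy, differed by -0.15 (adjusted p = 0.238). Orai1, the plasma membrane channel of store-operated calcium entry, differed by -0.17 (adjusted p = 0.167), and Gna11, a Gq-class protein alpha subunit, by -0.14 (adjusted p = 0.191). Chp1, a calcineurin B homologue that inhibits calcineurin, differed by -0.07 (adjusted p = 0.375).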

How the data were processed

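Per the study's methods, paired-end reads were aligned to mm9 with TopHat, unique reads were kept, and the authors used Cufflinks to derive FPKM per library. The deposited FPKM of 37819 features in 10 libraries, all run on 1 flow cell, were used as given after removal of 1 stray header line. The deposited DESeq2 comparison (mean normalized counts, fold changes, test statistics and p-values) was not used, nor were its 10 value columns. Ratios between these columns were fixed within the first 5 and within the last 5 in all 22568 features checked. The depth per library is not given in the sources used here. It was estimated from single-transcript genes of 2000 to 6000 bp, where 77.8% to 85.5% of low values lay within 0.1 of a whole number of fragments, and is approximate. Ages were compared with limma 3.58.1 in R 4.3.3 (lmFit, eBayes with trend) on log2(FPKM + 1) for features averaging 1 FPKM or more, old minus young, with Benjamini-Hochberg adjustment, and exact two-sided permutation over 252 arrangements for single values and 5 ratios. The limma step was tested on simulated data with independent noise for each gene. The simulation held no differences between libraries in scaling or cell content, so it did not test their effect. Coordinates were taken from GENCODE for mm9 and promoters from RefSeq (GRCm38.p6). Plots were drawn with matplotlib 3.10.9.

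The members, the 6 pathway lists and the marker lists were chosen with earlier results of these data known. Named genes are all members, each called gene of a pathway list or else its 2 genes with the smallest p, and the 4 features most correlated with Rcan1 and with Camk2d. Alternatives were a pseudocount of 0.1, no filter, a minimum of 5 FPKM, median-ratio scaling, equal total FPKM, a replicate block, robust eBayes, array weights, stromal markers as a covariate, and leaving out each library, or old library 1 with young library 4.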

Additional observations from a re-analysis of the deposited data

How the results depend on the processing

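No member was called under any of the 20 alternatives to the limma fit. The difference of Ppp3r1 kept its sign throughout, at -0.17 to -0.06. That of Ppp3ca turned to 0.0602 with median-ratio scaling and 0.0198 without old library 1 and young library 4, and ranged from -0.0252 to 0.0203 on leaving out each library in turn. That of Camk2d turned to -0.0212 with equal total FPKM and -0.0103 without both libraries, and ranged from -0.0358 to 0.0557 on leaving out each in turn. The log2 ratio of Nfatc3 over Nfatc4 turned to 0.03 without both libraries and ranged from -0.22 to 0.15 on leaving out each in turn. These differences were not called in any setting. The count of features called was 135 with median-ratio scaling, 20 with equal total FPKM, 49 without both libraries and 33 to 146 on leaving out each library in turn. Called pathway genes numbered 1 without a filter and with median-ratio scaling, 0 with equal total FPKM and without both libraries, and 0 to 3 on leaving out each in turn. Same-numbered old and young libraries did not deviate together over all tested features (correlations -0.16 to 0.06). That cannot exclude a pairing by number, and Rcan1 was high in libraries 1 and 3 of both ages. With a replicate block, 26 features, 0 members and 0 pathway genes were called, with the differences as before. Adjusted p-values with the block were 0.197 for Ppp3r1, 0.245 for Rcan1 (0.615 without it), 0.158 for Camk1 and 0.130 for Ankrd1. The causes were not tested. Nfatc4 rests on about 20 to 60 fragments per library.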
